A study of Mus musculus with 6 samples.

Results

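The genes described here encode Bcl2 family proteins, which decide at the mitochondrion whether a lymphocyte lives or dies. The rule named 10 of them, Bcl2, Bcl2l1, Mcl1, Bcl2l11, Bax, Bak1, Bbc3, Pmaip1, Bid and Bad, and took for each the brightest probe set that the platform annotation assigned to that symbol alone. A total of 9 had such a probe set, each exactly 1, among 19938 genes found in this way. Bax had none in the annotation used here and was not analysed. The 6 arrays (Affymetrix mouse Gene 1.0 ST) measured RNA of resting CD8+ T cells (CD8-TC) taken from the spleens of male ICR mice aged 6 weeks. They comprised 3 arrays of mice with both Runx3 alleles (Runx3 +/+, WT) and 3 of mice without Runx3 (Runx3-/-). No other allele, treatment or agent is named in the labels. The study's methods speak of 3 biological repeats and do not say whether a repeat was 1 mouse or a pool. Wherever mice are counted below, a mouse stands for 1 such repeat. ICR mice are outbred. WT cells were selected on anti-CD8 beads, and Runx3-/- cells were selected likewise, after which a FACS sort took out CD11c+ dendritic cells, although another label mentions sorting for every sample. Purification and genotype therefore cannot be told apart in these arrays. No Cre or cell type restriction is named for the loss of Runx3.

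Proteins of the Bcl2 family fall into groups by role. The survival proteins Bcl2, Bcl-xL (encoded by Bcl2l1) and Mcl1 hold the effectors Bax and Bak1 in check, and the effectors, once released, open the outer mitochondrial membrane so that cytochrome c escapes and caspases are activated. The BH3-only proteins Bim (Bcl2l11), Puma (Bbc3), Noxa (Pmaip1), Bid and Bad sense stress or loss of cytokine and neutralise the survival proteins or engage the effectors. Resting T cells depend on Bcl2 and Mcl1, which are maintained by cytokines such as IL-7 and IL-15, and Bim is the main death protein of T cells deprived of them.

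Each value below is an RMA signal on the log2 scale, and each difference is Runx3-/- minus WT on that scale. Signals of the members were not set against each other, since probe sets do not share a common scale. The array median and maximum serve below as a filter or as rough marks of level only. Sums of marker signals are compared between arrays. Tests were two-sided with limma, a linear model with variances moderated over all genes, and p-values were adjusted by Benjamini-Hochberg over 9924 tested genes, at a threshold of 0.05. Of the 9 genes, 8 were tested. Bbc3 lay below the median of all probe sets in each of the 6 arrays and was not tested.

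None of the 8 genes tested passed in limma. Over all tested genes 11.6% passed, 5.63% as higher and 6% as lower in Runx3-/- cells. At an unadjusted p under 0.05 there were 3, Bcl2l1, Pmaip1 and Bak1, all lower in Runx3-/- cells. This is 37.5% of the 8, whereas 27.7% of all tested genes had an unadjusted p under 0.05. The groups did not overlap for 3 genes, Bcl2l1, Pmaip1 and Mcl1, against 33.6% of all tested genes (16.2% with Runx3-/- below WT and 17.4% with it above). No member reached the 1.5-fold change that the study's methods required together with a p under 0.05, which 8.07% of all tested genes did. Without moderation of variances 0 members passed and 3 had an unadjusted p under 0.05, namely Bcl2l1, Pmaip1 and Mcl1. Of these, Mcl1 was higher in Runx3-/- cells, and Bak1 had an unadjusted p of 0.0823 in that fit. The median difference of the 8 was -0.077, beside 0.0062 for all tested genes. The shares of 37.5% are 3 genes each, near the 27.7% and 33.6% of all tested genes, and the members' intervals give the sizes of change that the 6 arrays leave possible.

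**Figure D1:**
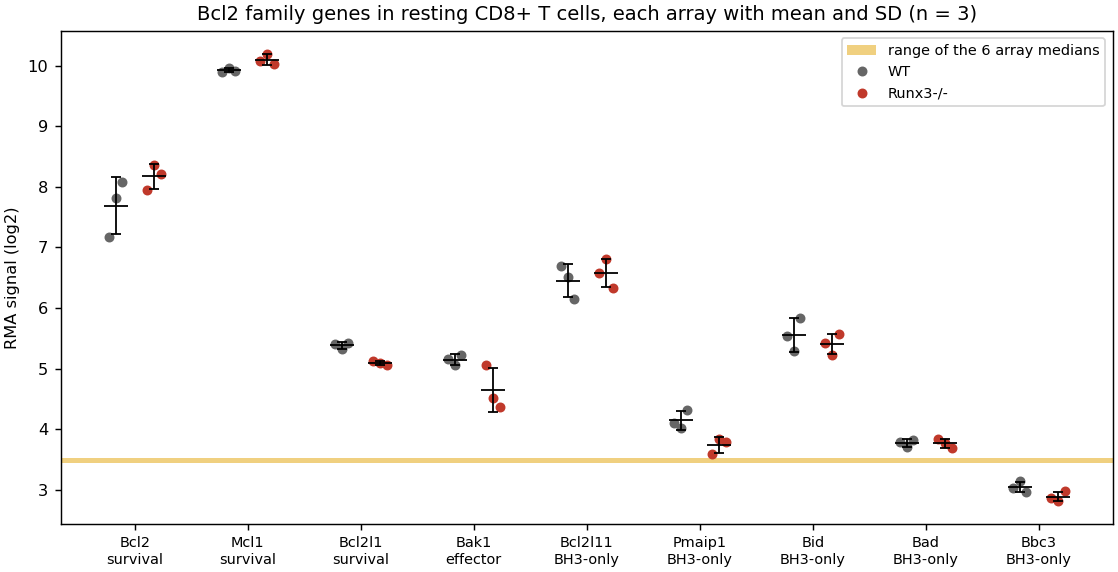
Log2 RMA signal (vertical axis) of 9 Bcl2 family genes with their roles (horizontal axis) for every array, WT in grey and Runx3-/- in red, with each group mean and its SD (n = 3). The groups are separate for Mcl1, Bcl2l1 and Pmaip1 and overlap for the others, and Bbc3 lies below the band that spans the 6 array medians.

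The survival genes did not share a direction. Bcl2, the founding survival gene (probe set 10357043), gave 7.17, 7.82 and 8.08 in WT mice, against 7.95, 8.36 and 8.21 in Runx3-/- mice. WT replicate 1 was the lowest of all 6, and the highest WT array lay within the Runx3-/- range. The change in Runx3-/- mice came to 0.48 ± 0.22 (SE, 3 mice a group), and its 95% interval spanned -0.024 to 0.99 (limma adjusted p = 0.201). Without WT replicate 1 it was 0.22 (adjusted p = 0.45), so that the value rested in large part on this array. In the same WT array the mean signal of the B cell markers was also the lowest of the WT arrays, at 6.14 beside 6.52 and 6.88, whereas it lay between 4.19 and 4.36 in the Runx3-/- arrays. The part of B cell RNA in the Bcl2 signal was not tested.

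Mcl1 encodes a short-lived survival protein. Its probe set (10494306) gave 9.90, 9.96 and 9.91 in WT mice, against 10.07, 10.20 and 10.03 in Runx3-/- mice. All 3 Runx3-/- arrays were above all WT arrays, by a margin of only 0.064 between the nearest pair. Runx3-/- minus WT came to 0.18 ± 0.090 (SE, 3 mice a group), and its 95% interval spanned -0.030 to 0.38 (limma adjusted p = 0.248). It shrank to 0.010 when each array was centred on 7 T cell genes, whose mean signal lay between 9.33 and 9.61 in WT and between 9.57 and 9.78 in Runx3-/- arrays. That centring moved the median of all tested genes to -0.16.

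Bcl2l1, which encodes Bcl-xL, was the only 1 of these 3 survival genes with a lower mean in Runx3-/- cells. Its probe set (10488655) gave 5.40, 5.32 and 5.43 in WT mice, against 5.13, 5.10 and 5.07 in Runx3-/- mice. The replicates of each group lay close together, with an SD of 0.057 in WT and 0.032 in Runx3-/- arrays, and the groups were separate. The change in Runx3-/- mice came to -0.28 ± 0.086 (SE, 3 mice a group), a 1.22-fold lower signal, and its 95% interval spanned -0.48 to -0.087 (unadjusted p = 0.0101 and adjusted p = 0.0704 in limma). It passed when no filter on dim genes was applied (adjusted p = 0.0425). Bcl-xL is also made by erythroid cells and macrophages. In the same arrays 6 of 7 erythroid and 13 of 13 macrophage markers tested fell, beside 6% of all tested genes. Of the 6 erythroid markers, 3 reached the array median in WT arrays only and entered the test through them. Their part in the Bcl2l1 value was not tested.

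Bak1 was the only effector measured. Its probe set (10449303) gave 5.17, 5.06 and 5.23 in WT mice, against 5.06, 4.52 and 4.37 in Runx3-/- mice. Runx3-/- replicate 1 lay among the WT arrays and the other 2 Runx3-/- arrays lay below them. Runx3-/- minus WT came to -0.50 ± 0.17 (SE, 3 mice a group), 1.41-fold lower, and its 95% interval spanned -0.89 to -0.11 (unadjusted p = 0.0181 and adjusted p = 0.0994 in limma). Without Runx3-/- replicate 1 it was -0.71 and passed (adjusted p = 0.0112). It also passed, at -0.67, with arrays centred on T cell genes (adjusted p = 0.03), which moved the median of all tested genes to -0.16. Without Runx3-/- replicate 3 it was -0.36 (adjusted p = 0.244), and without Runx3-/- replicate 2 it was -0.43 (adjusted p = 0.253). Without moderation of variances the adjusted p was 0.276. The Runx3-/- SD of 0.37 for Bak1 was the largest among the 9 genes in that group.

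Among the BH3-only genes, Pmaip1 stood apart between the genotypes. Pmaip1 encodes Noxa, which binds Mcl1. Its probe set (10456357) gave 4.10, 4.02 and 4.32 in WT mice, against 3.58, 3.84 and 3.79 in Runx3-/- mice, so that all Runx3-/- arrays were below all WT arrays. The change in Runx3-/- mice came to -0.41 ± 0.12 (SE, 3 mice a group), 1.32-fold lower, and its 95% interval spanned -0.67 to -0.14 (unadjusted p = 0.0078 and adjusted p = 0.0598 in limma). It passed after quantile normalization, at -0.45 (adjusted p = 0.0376), and with equal array medians, at -0.43 (adjusted p = 0.0484). Without WT replicate 3 it was -0.32 (adjusted p = 0.141), and without Runx3-/- replicate 1 it was -0.33 (adjusted p = 0.145). Without moderation of variances the adjusted p was 0.173. These signals lay near the array medians of 3.45 to 3.53.

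Bcl2l11, which encodes Bim, gave 6.69, 6.52 and 6.15 in WT mice, against 6.58, 6.81 and 6.34 in Runx3-/- mice (probe set 10475866). The groups overlapped over most of their range. Runx3-/- minus WT came to 0.12 ± 0.17 (SE, 3 mice a group), and its 95% interval spanned -0.26 to 0.50 (limma adjusted p = 0.679). Its sign turned without WT replicate 3 (-0.027) and with arrays centred on T cell genes (-0.044), a setting that moved the median of all tested genes to -0.16. The arrays therefore gave no direction for Bim.

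Bid, which is cleaved by caspase-8 and links death receptors to mitochondria, gave 5.54, 5.28 and 5.84 in WT mice, against 5.42, 5.23 and 5.57 in Runx3-/- mice (probe set 10547531). Its groups overlapped. The difference of -0.15 ± 0.15 (SE, 3 mice a group) did not pass, and its 95% interval spanned -0.50 to 0.20 (limma adjusted p = 0.577). Without WT replicate 3 the difference was -0.0059.

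Bad, which growth factor signalling inactivates by phosphorylation, gave 3.79, 3.71 and 3.83 in WT mice, against 3.84, 3.78 and 3.69 in Runx3-/- mice (probe set 10461017). Its groups overlapped fully. The change in Runx3-/- mice came to -0.0040 ± 0.090 (SE, 3 mice a group), and its 95% interval spanned -0.21 to 0.20 (limma adjusted p = 0.983). The signal lay close to the array medians.

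Bbc3, which encodes Puma, a death protein induced by p53 and by loss of cytokine, gave 3.03, 3.14 and 2.96 in WT mice, against 2.87, 2.82 and 2.98 in Runx3-/- mice (probe set 10550290). These values overlapped and lay under the array medians.

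**Figure D2:**
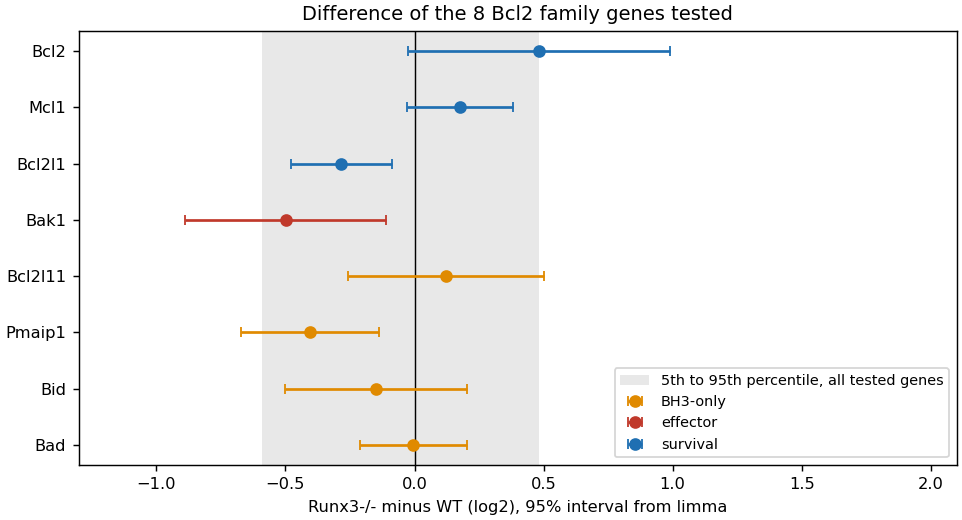
Difference Runx3-/- minus WT on the log2 scale (horizontal axis) of the 8 genes tested (vertical axis), with 95% intervals from limma (n = 3 per group) and colours for the roles. The grey band spans the 5th to the 95th percentile of all tested genes, from -0.59 to 0.48. The intervals of Bcl2l1, Bak1 and Pmaip1 lie below 0, but none passed after adjustment over all genes.

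The calls of the members depended on the setting. Of 18 other settings, 13 gave 0 members past the threshold and 5 gave exactly 1. The 1 member was Pmaip1 under quantile normalization and equal medians, Bak1 with arrays centred on T cell genes and without Runx3-/- replicate 1, and Bcl2l1 without the filter. Bcl2 and Mcl1 stayed above 0, and Bcl2l1, Bak1, Pmaip1 and Bid below 0, under all 18 settings. Bcl2l11 and Bad changed sign under some of them. Changes of filter, probe set averaging, variance model, replicate block or thresholds left each member's difference unchanged (0.48 for Bcl2). Agreement in sign under those settings was fixed in advance. Settings that share arrays are not independent of each other.

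**Figure D3:**
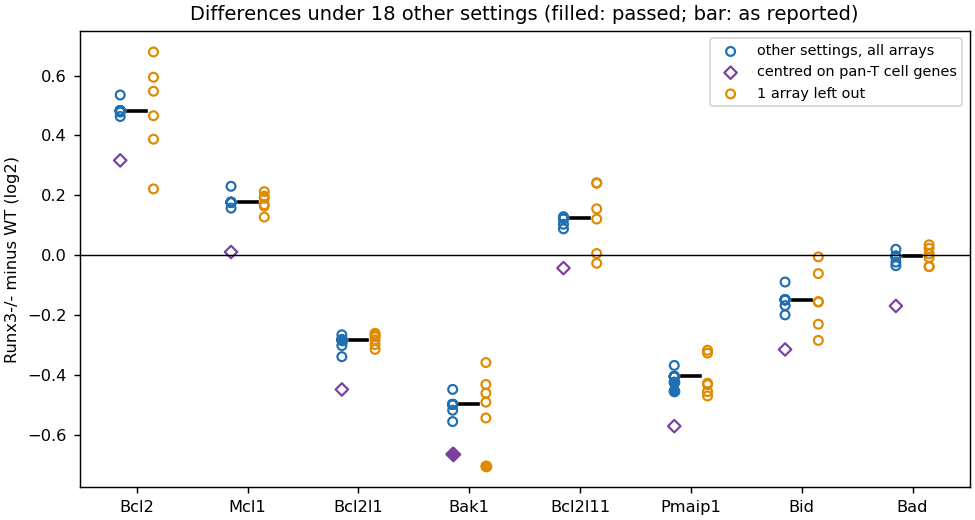
Difference Runx3-/- minus WT on the log2 scale (vertical axis) of the 8 tested genes (horizontal axis) under 18 other settings, with the reported value as a black bar and filled symbols where the gene passed. Bcl2 ranges from 0.22 to 0.68 and Bak1 from -0.71 to -0.36, and Bcl2l11 and Bad lie on both sides of 0.

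Runx factors bind the motif TGTGGT. The variant TGTGGC differs from it in the last letter, the variant TGCGGT in an inner letter and the variant TGCGGC in both places. No other spelling was searched, and these letters were looked up on both strands of the RefSeq promoter windows of the family (GRCm38.p6, 250 bases before to 50 after each start). Windows were found for 9 members, Bax included, and none for Pmaip1. A match was present in 8 of 15 windows, against 45.2% of all 32851 windows of 300 bases. Overlapping windows of Bbc3 share matches, which were counted in each window. Of the 9 members, 6 had a match in at least 1 window, a count to which the share of windows does not apply. Of the genes with an unadjusted p under 0.05, Bak1 had 1 match, TGTGGT, whose first base lies at -221 from the start. Bcl2l1 had 0 in its 3 windows, and Bcl2 and Mcl1 had 0 in 1 window each. Both stretches below cover the 250 bases before a start, read on the strand of the gene, and are shown because their genes were the survival and effector genes with the lowest p. Capitals mark the match. A match is a run of letters and not a bound site, and its absence from a window says nothing of sites elsewhere.
Bak1, chr17:27028628-27028877, minus strand: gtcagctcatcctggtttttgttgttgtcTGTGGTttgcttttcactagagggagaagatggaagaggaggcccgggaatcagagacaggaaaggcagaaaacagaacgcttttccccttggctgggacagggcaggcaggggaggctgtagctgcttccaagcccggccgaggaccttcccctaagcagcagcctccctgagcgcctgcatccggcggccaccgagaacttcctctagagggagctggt
Bcl2l1, chr2:152831729-152831978, minus strand, the farthest upstream of its 3 starts: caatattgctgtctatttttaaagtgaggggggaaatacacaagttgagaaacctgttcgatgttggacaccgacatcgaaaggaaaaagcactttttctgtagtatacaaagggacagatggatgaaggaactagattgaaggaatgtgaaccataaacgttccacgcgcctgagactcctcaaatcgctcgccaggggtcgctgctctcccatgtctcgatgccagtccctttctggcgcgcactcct

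No other gene of the family passed either. Of 16 further family genes listed, 13 had a probe set and 8 were tested, and 0 passed in limma, with 1 at an unadjusted p under 0.05. That gene was Bcl2a1c, of the A1 survival genes, with a difference of -0.73 ± 0.27 (SE, adjusted p = 0.124). It met the 1.5-fold change and unadjusted p of the study's methods, and without WT replicate 3 it was -0.43. Near-identical A1 copies exist, and 3 of them, Bcl2a1a, Bcl2a1b and Bcl2a1d, had no probe set of their own symbol here, so that the Bcl2a1c signal may mix copies. The BH3-only gene Bmf gave -0.30 ± 0.14, the mitophagy receptor gene Bnip3l -0.23 ± 0.12 and Bcl2l14 -0.34 ± 0.21, and none of them passed. Leaving out 1 array moved Bmf to -0.19 (Runx3-/- replicate 1), Bnip3l to -0.13 (WT replicate 1) and Bcl2l14 to -0.094 (WT replicate 3). The list's median difference was -0.18, beside 0.0062 for all tested genes. Bcl2l2, Bcl2l10, Bik, Hrk and Bcl2l15 lay below the filter.

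Downstream of the effectors, Cycs and Casp6 fell. Cycs encodes cytochrome c, which serves respiration in living cells and starts the caspase cascade once released. It gave 7.84, 7.56 and 7.75 in WT mice, against 7.09, 7.04 and 7.29 in Runx3-/- mice (probe set 10528170). The groups were separate, and Runx3-/- minus WT came to -0.57 ± 0.11 (SE, 3 mice a group, limma adjusted p = 0.0155). Of its other probe sets, 1 gave -0.43 and 1, with a WT mean of 3.04, gave -0.0097. Processed copies of this gene exist in the genome and may add to its signal.

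Casp6, which encodes an executioner caspase, gave 5.27, 5.13 and 4.91 in WT mice, against 4.67, 4.60 and 4.17 in Runx3-/- mice (probe set 10496023). Its groups were separate, with a difference of -0.63 ± 0.15 (SE, n = 3 per group, limma adjusted p = 0.0361). Cycs did not pass without WT replicate 1 (adjusted p = 0.061) or Runx3-/- replicate 2 (adjusted p = 0.0595). Casp6 did not pass when WT replicate 1 or 2 or Runx3-/- replicate 2 or 3 was left out (adjusted p from 0.0712 to 0.118). Without moderation of variances the adjusted p was 0.106 for Cycs and 0.176 for Casp6. Cycs, at 1.49-fold, also stayed under the 1.5-fold change of the study's methods. Casp6 did not pass without the filter either (adjusted p = 0.0602). Where 6% of all tested genes passed as lower, 2 of 7 apoptosome and caspase genes tested fell and 5 did not pass. Those with the next lowest p were Casp8, the initiator of death receptor signalling (0.51 ± 0.16, adjusted p = 0.0857), and Casp9, the initiator of the mitochondrial route (-0.30 ± 0.098, adjusted p = 0.0904). Both had separate groups.

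In the death receptor pathway, 2 of 10 genes tested rose and 0 fell, beside 5.63% and 6% of all tested genes. Fasl, the ligand with which T cells kill through the receptor Fas, gave 3.11, 3.16 and 3.26 in WT mice, against 3.75, 3.73 and 3.62 in Runx3-/- mice (limma adjusted p = 0.0101). Fasl reached the array median in the Runx3-/- arrays only and entered the test through them, so that its difference of 0.52 ± 0.092 (SE) is a description more than a test. The receptor gene Tnfrsf1a gave 6.50, 6.59 and 6.36 in WT mice, against 6.97, 6.80 and 6.84 in Runx3-/- mice. Its difference was 0.39 ± 0.10 (SE, limma adjusted p = 0.0437), and it did not pass when any 1 of the 6 arrays was left out (adjusted p from 0.0622 to 0.113) or with the replicate number as a block (adjusted p = 0.0613). The caspase-8 inhibitor gene Cflar gave 0.28 ± 0.10 (adjusted p = 0.113), and its 2 other probe sets gave 0.38 and 0.22. Tnfrsf1b gave -0.30 ± 0.17 (adjusted p = 0.305), and -0.11 without WT replicate 3. With arrays centred on T cell genes neither Fasl (adjusted p = 0.132) nor Tnfrsf1a (adjusted p = 0.254) passed.

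The inhibitors of caspases and the p53 pathway held no gene that passed. Of 7 IAP genes and antagonists tested, 0 passed in limma and 0 had an unadjusted p under 0.05. The 4 with the lowest p were Birc3 (0.20), Birc2 (0.11), Xiap (-0.077) and Birc5 (0.074), and the signs of Birc2 and Birc5 turned with arrays centred on T cell genes. Of 7 p53 pathway genes tested, 0 passed in limma and 3 had an unadjusted p under 0.05. These were Mdm2, the p53 ligase (0.40 ± 0.13, adjusted p = 0.0965), Ccng1 (-0.25 ± 0.10) and Trp53inp1 (0.26 ± 0.11), and Sesn2 followed with -0.29 ± 0.13. Leaving out 1 array moved Ccng1 to -0.15 (WT replicate 1), Trp53inp1 to 0.17 (WT replicate 3) and Sesn2 to -0.19 (WT replicate 3). The p53-induced members Pmaip1 and Bbc3 are described above.

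Upstream of Bcl2 and Bim, 2 of 13 genes of the survival cytokine axis rose and 0 fell. Over all tested genes 5.63% rose and 6% fell. Il2ra, the high-affinity chain of the IL-2 receptor, read from 3.24 to 3.47 in WT and from 5.35 to 5.86 in Runx3-/- cells. It too reached the array median only in Runx3-/- arrays, and it also stands among the 6 markers of CD4 helper and regulatory T cells, all of which rose. Whether the Il2ra value came from such cells or from CD8+ T cells was not tested. Pim1, a survival kinase induced by STAT5, gave 7.81, 7.73 and 7.57 in WT mice, against 8.19, 8.18 and 8.40 in Runx3-/- mice, with a difference of 0.56 ± 0.11 (SE, n = 3 per group, limma adjusted p = 0.0145). It did not pass with arrays centred on T cell genes (0.39, adjusted p = 0.0973) or without Runx3-/- replicate 3 (adjusted p = 0.0501). Pim1 also did not pass without moderation of variances or at the 1.5-fold change of the study's methods. Akt1 gave -0.29 ± 0.097 (adjusted p = 0.094) and Stat5b 0.29 ± 0.12 (adjusted p = 0.161). Il7r and Il2rb, which receive IL-7 and IL-15, gave 0.068 and 0.13 and did not pass (adjusted p = 0.688 and 0.783 in limma). They were picked out of the list for their role and not by rank.

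Of 8 genes of the outer mitochondrial membrane and its partners tested, 1 rose and 0 fell, beside 5.63% and 6% of all tested genes. Itpr2, an IP3 receptor gene whose protein releases calcium from the endoplasmic reticulum, gave 7.60, 7.91 and 7.95 in WT mice, against 8.19, 8.39 and 8.49 in Runx3-/- mice. Its groups were separate, with a difference of 0.54 ± 0.13 (SE, n = 3 per group, limma adjusted p = 0.0325). It did not pass without WT replicate 1 or 2 or Runx3-/- replicate 2 or 3 (adjusted p from 0.0585 to 0.102), nor with arrays centred on T cell genes (0.37, adjusted p = 0.216). Itpr2 also did not pass without moderation of variances or at the 1.5-fold change of the study's methods. The channel gene Vdac3 gave -0.29 ± 0.085 (adjusted p = 0.0598) and passed under 6 of 18 other settings. Itpr3 gave 0.27 ± 0.10 and Ppif -0.44 ± 0.21, which was -0.19 without Runx3-/- replicate 3. Over all 7 lists, 5 genes rose and 2 fell among 60 tested, which is 11.7%, beside the 11.6% of all tested genes, and 2 of the 5, Fasl and Il2ra, entered the test through the Runx3-/- arrays alone.

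**Figure D4:**
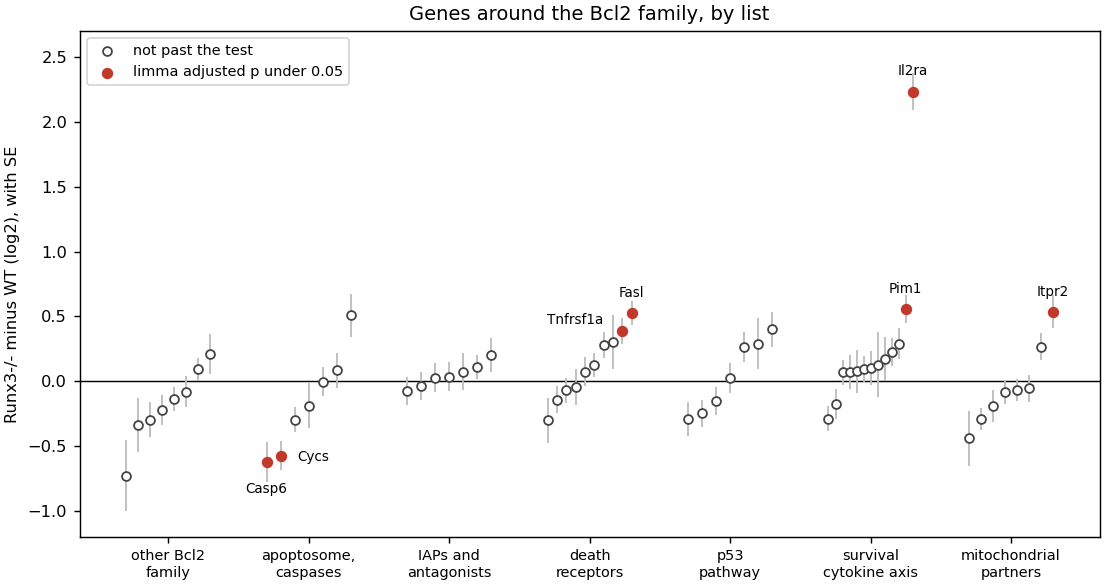
Difference Runx3-/- minus WT on the log2 scale, with its SE (vertical axis), of 60 tested genes in 7 lists around the Bcl2 family (horizontal axis). Red points passed the limma test at an adjusted p under 0.05 and are named, and open points did not. Il2ra lies at 2.23 and all other genes between -0.73 and 0.56.

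Most markers of other cells differed between the genotypes in the same arrays. The targeted gene gave 7.09, 7.30 and 6.99 in WT mice, against 7.06, 7.17 and 7.64 in Runx3-/- mice (limma adjusted p = 0.559). The sources do not say whether its probe set lies in the deleted part, so that it does not check the labels. Of 8 T cell markers 0 passed in limma and 1 had an unadjusted p under 0.05, and Cd3g, Cd8a and Cd8b1 averaged 11.2, 11.1 and 10.7 in WT cells, beside an array maximum of 13.3 to 13.5. All 6 markers of CD4 helper and regulatory T cells rose, and 3 of them, Il2ra, Ctla4 and Foxp3, reached the array median in Runx3-/- arrays only. The paper counts Cd4 among the genes bound by Runx3 in resting CD8-TC, with higher expression after its loss. Whether these markers rose within CD8+ T cells or came from other T cells was not tested. Of the B cell markers 10 of 11 tested fell, of the macrophage markers 13 of 13, of the erythroid markers 6 of 7, of the dendritic cell markers 3 of 10, of the natural killer cell markers 2 of 3 and of the neutrophil markers 2 of 3. Of those that fell, 2 B cell, 3 erythroid and 2 neutrophil markers reached the array median in WT arrays only, so that they entered the test through the group where they were high. Over all tested genes 5.63% rose and 6% fell. The linear signals of the macrophage markers summed to between 2785 and 2881 in WT and between 308 and 547 in Runx3-/- arrays. Those of the B cell markers summed to between 1142 and 1778 and between 233 and 295. Erythroid markers summed to between 379 and 601 and between 125 and 134. Dendritic cell markers overlapped in their sums, which were 3750 to 6146 in WT and 2054 to 3809 in Runx3-/- arrays. Their mean log2 signals did not overlap, with 6.52 in the lowest WT and 6.45 in the highest Runx3-/- array. Natural killer cell markers summed to between 339 and 449 and between 115 and 137, and neutrophil markers to between 70.5 and 112 and between 52.2 and 62.9. The sums of CD4 helper and regulatory markers lay between 87.8 and 105 in WT and between 413 and 494 in Runx3-/- arrays, and those of CD8 T cell markers between 8842 and 10624 and between 9559 and 11312. The 3 natural killer cell markers Ncr1, Klrb1c and Klra8 lay below the array median in all 6 arrays. The 2 natural killer cell markers that fell were Klrd1 and Fcer1g, whereas Klre1 gave 0.094 (limma adjusted p = 0.565). All of these cells also use Bcl2 family genes, and a lower signal from fewer cells of a type cannot be told apart from less RNA per cell in such samples. What these cells add to each member's value was not tested.

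**Figure D5:**
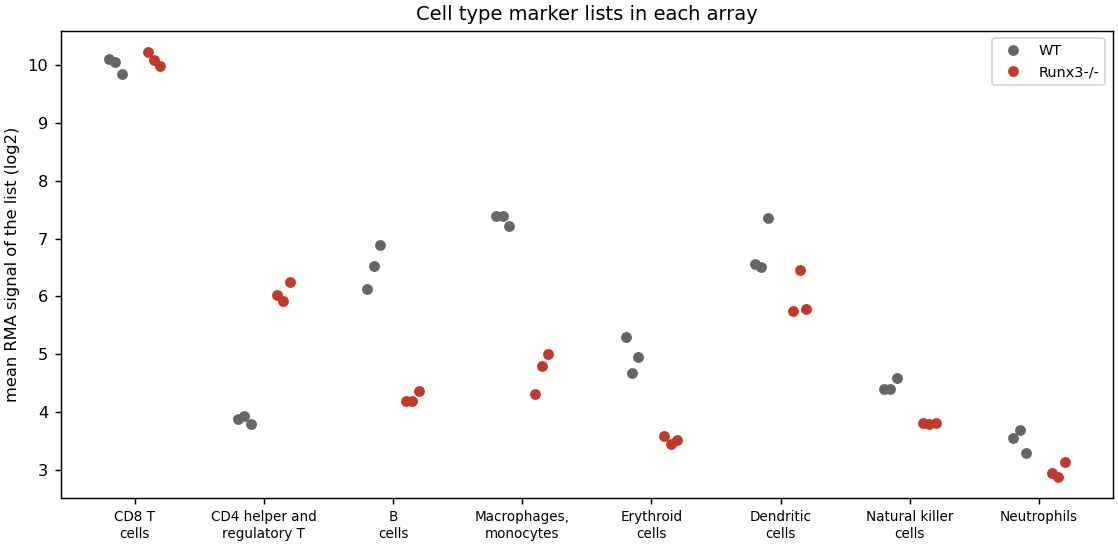
Mean log2 RMA signal (vertical axis) of 8 lists of cell type markers (horizontal axis), WT arrays in grey and Runx3-/- arrays in red. The lists of macrophages, B cells, erythroid cells, dendritic cells, natural killer cells and neutrophils are lower in all Runx3-/- arrays. For dendritic cells the gap is narrow, from 6.45 in the highest Runx3-/- array to 6.52 in the lowest WT array. The list of CD4 helper and regulatory T cells is higher in all Runx3-/- arrays, and that of CD8 T cells overlaps.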

How the data were processed

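RNA of 6 samples of CD8-TC was hybridised to 1 array each. The authors deposited log2 values made with RMA and a GC correction in Partek Genomics Suite. The submitters' processing notes name Partek and RMA, and neither a version nor a genome build is stated there (not given in the sources used here). No detection call was used. The table held 35399 probe sets. Of these, 21789 had 1 gene symbol in GEO's platform annotation and 1621 had several and were not named. The brightest probe set stood for a gene, and a gene was tested if it reached the array median in at least 1 array. The 9924 genes left were fitted with limma (version 3.58.1, R 4.3.3; lmFit and eBayes, no covariates), an approach checked on simulated data. The number of arrays limits the precision. In the simulated data, where few genes were changed, 38.8% of log2 differences of 0.5 passed and 1.2% of those of 0.25. Other scalings, filters, variance models, a replicate block, the fold and p thresholds of the study's methods and leaving out each array were tried as alternatives. Groups came from the sample titles. The titles do not say how mice were paired, and p-values cover the spread between these biological repeats. Named were all 10 members, Runx3, in each list up to 4 genes with the lowest p and in marker lists up to 3 of the brightest. Il7r, Il2rb, the genes without a probe set or below the filter, and Ctla4, Foxp3 and Il2ra as markers were named in addition. So were the natural killer cell markers Ncr1, Klrb1c and Klra8. Members and lists were chosen with earlier results of these data known.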

Additional observations from a re-analysis of the deposited data

How the results depend on the processing

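Of the 8 genes tested, the number past the threshold was 0 in the reported fit and under 13 of 18 alternatives. It was 1 under quantile normalization, with equal array medians, with arrays centred on T cell genes, without the filter and without Runx3-/- replicate 1, so that it ranged from 0 to 1 with an array left out. The number of related genes past the threshold was 7. It was 4 with arrays centred on T cell genes (3 of them among the 7), 2 without moderation of variances (1 of them among the 7) and 3 at the methods' fold and p thresholds, and it ranged from 3 to 6 with an array left out. Over all genes 1154 passed, 178 without moderation of variances and between 619 and 920 with an array left out. The centring on T cell genes moved the median of all tested genes to -0.16 and the share of higher genes among the calls to 15.1%, from 48.4%. Signs turned under this centring for Runx3 (-0.0033), Bcl2l11 (-0.044), Birc2 (-0.055) and Birc5 (-0.092). With an array left out, Runx3 ranged from -0.012 (without Runx3-/- replicate 3) to 0.28, Bcl2l11 from -0.027 (without WT replicate 3) to 0.24, Bad from -0.039 to 0.034 (positive without WT replicate 1, WT replicate 3 or Runx3-/- replicate 3), Birc5 from -0.040 (without WT replicate 2, negative also without Runx3-/- replicate 1) to 0.19 and Cd8a from -0.091 to 0.036 (without Runx3-/- replicate 3). Bad also turned with array weights (0.019) and Cd8a under quantile normalization (0.014). None of these genes passed in the reported fit, and the cause of the turns was not tested.

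Same-numbered WT and Runx3-/- arrays shared deviations from their group means with correlations of 0.177, 0.032 and -0.00014 across genes, and WT replicate 2 correlated best with Runx3-/- replicate 3, so that the numbers were not taken to pair the mice. With the replicate number as a block, 1084 genes passed, with 0 members and 6 related genes among them. Each of the 9 members measured had 1 probe set, so that no other probe set of a member could be compared. Signals near the array median limit what can be said of Pmaip1, Bad and Bbc3.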
